A study of Mus musculus with 36 samples.

Results

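The regions described here are stretches of open chromatin that were called in metatarsals and rarely elsewhere among the bones of the mouse hand and foot at stage E15.5 of embryonic development. Peaks from 12 lists were merged wherever they shared at least 1 bp, which gave 65543 regions on the mm10 build. A region was kept when at least 2 of the 3 metatarsal lists called it and at most 1 of the other 9 lists did. The rule kept 1149 of the 65543 regions (1.75%), and these are called metatarsal regions below. Because the regions were chosen by the calls of the lists, how often each list called them is a description and is not tested.

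ATAC-seq, which reads out open chromatin from the places where a transposase can insert adapters, was applied to chondrocytes, the cells of cartilage, from FVB/NJ mouse embryos. The 36 libraries came from 12 groups of 3: metatarsals, metacarpals, foot phalanges and hand phalanges, each for digits I, III and V. All groups shared the strain and the stage, the labels name no further allele or treatment, and the phalanges of a digit were pooled. Each library held tissue of 3 to 5 embryos of 1 litter, or 6 to 10 limbs, and the target was at least 40 M reads. Peaks were analysed as 1 list for each group, called on its pooled libraries, so no list has an error of its own and the read depth of single libraries is unknown. In such bulk tissue, fewer cells with an open site and a less open site in every cell cannot be told apart.

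Metatarsals are the long bones of the foot between the ankle and the toes, and metacarpals are their counterparts in the hand. At this stage they are cartilage templates that lengthen through columns of proliferating and enlarging chondrocytes. Open chromatin away from gene starts often marks enhancers, short elements bound by transcription factors that can act on genes over long distances. Hindlimb identity is set by Pitx1 and Tbx4, forelimb identity by Tbx5, and the distal limb is patterned by posterior Hox genes.

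Few metatarsal regions lay at gene starts. The centre of 15 regions (1.31%) lay within 1 kb of the start of a protein-coding gene, or of either end of a gene whose start was not known, and 9 of them overlapped a promoter of the RefSeq table for GRCm38.p6, whose primary chromosomes have the coordinates of mm10. The promoters of the 4 best ranked of these 9 are shown, with that of Sele, because the sequences at hand cover promoters and not the regions away from them. Each runs from 250 bases before to 50 bases after the annotated start, 5′ to 3′ on the strand of the gene. Capitals mark matches, on either strand, to 9 short motifs: AP-1 (TGANTCA), SOX (ACAATGG), RUNX (TGTGGTT), HOX13 (CCAATAAA), PITX (GGATTA), T-box (AGGTGTGA), NFAT (TGGAAA), TEAD (GGAATG) and an E-box (CAGCTG).
Tmem52b, chr6:129512307-129512606, plus strand: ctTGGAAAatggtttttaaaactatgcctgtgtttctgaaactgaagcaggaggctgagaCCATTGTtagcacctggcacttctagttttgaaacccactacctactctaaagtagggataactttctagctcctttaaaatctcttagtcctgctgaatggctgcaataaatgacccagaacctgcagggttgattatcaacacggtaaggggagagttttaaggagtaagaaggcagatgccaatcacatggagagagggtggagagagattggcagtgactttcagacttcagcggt
Adgrf5, chr17:43360181-43360480, plus strand: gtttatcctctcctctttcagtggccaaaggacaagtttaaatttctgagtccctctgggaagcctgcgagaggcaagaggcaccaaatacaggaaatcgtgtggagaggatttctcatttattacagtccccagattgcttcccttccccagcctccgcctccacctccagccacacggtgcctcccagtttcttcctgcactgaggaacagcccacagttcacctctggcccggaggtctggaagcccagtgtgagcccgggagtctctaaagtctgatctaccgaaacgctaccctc
1700016C15Rik, chr1:177729564-177729863, plus strand: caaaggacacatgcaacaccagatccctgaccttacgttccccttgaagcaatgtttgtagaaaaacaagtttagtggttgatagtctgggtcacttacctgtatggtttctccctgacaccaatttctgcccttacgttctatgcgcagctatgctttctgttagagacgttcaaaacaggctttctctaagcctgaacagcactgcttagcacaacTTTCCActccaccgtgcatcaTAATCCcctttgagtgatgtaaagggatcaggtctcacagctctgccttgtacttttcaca
Agtr1b, chr3:20367128-20367427, minus strand: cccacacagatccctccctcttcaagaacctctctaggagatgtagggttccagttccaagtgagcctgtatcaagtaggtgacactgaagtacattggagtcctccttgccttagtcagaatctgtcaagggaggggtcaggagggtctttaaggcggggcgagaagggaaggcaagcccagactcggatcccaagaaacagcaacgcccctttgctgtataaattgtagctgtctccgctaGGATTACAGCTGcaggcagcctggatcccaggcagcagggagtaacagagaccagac
Sele, chr1:164047984-164048283, plus strand: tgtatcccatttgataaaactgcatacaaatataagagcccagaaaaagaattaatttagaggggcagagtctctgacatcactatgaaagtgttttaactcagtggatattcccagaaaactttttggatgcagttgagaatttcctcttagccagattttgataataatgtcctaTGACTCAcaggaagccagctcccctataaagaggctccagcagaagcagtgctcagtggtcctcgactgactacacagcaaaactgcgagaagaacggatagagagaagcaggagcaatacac

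These promoters were poor in CpG beside promoters at large. Over the 9 promoters the median GC content was 48.3% and the median number of CpG pairs 4, against 56.3% and 13 over 21263 promoters of protein-coding genes. PITX letters occurred in 4 of the 9, where 6.42% of all promoters hold them, and NFAT letters in 3 of the 9, where 19.3% do. AP-1 letters were found in 1 (6.99% of all promoters), SOX letters in 1 (2.92%) and the E-box in 1 (15.6%). RUNX, HOX13, T-box and TEAD letters were in none of the 9, and 4.71%, 0.912%, 1.15% and 13.6% of all promoters hold them. With 9 promoters these counts describe the sequences and no more, and a match is not a bound site.

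The Tmem52b and Sele regions were the only members at a gene start that all 3 metatarsal lists and no other list called. When every list was cut to the length of the shortest, 4 of the 15 regions at a start (26.7%) still met the rule, those at Tmem52b, Adgrf5, 1700016C15Rik and Elf5, and the Sele and Agtr1b regions did not. Strength is given here in 2 ways, both from the authors' peak caller: the fold enrichment of a peak, and its rank, the percentile of its −log10 p-value among the peaks of the same list, with 100 the most significant. At Tmem52b, which encodes a transmembrane protein, the region (chr6:129511536-129514830) had fold enrichments of 5.59 in metatarsal digit I, 7.90 in digit III and 8.96 in digit V. Its ranks were 9.7, 32.5 and 39.2. The digit I peak was thus weaker than the others. At Sele, which encodes E-selectin, an adhesion molecule of activated endothelium, the region (chr1:164047601-164049594) had fold enrichments of 5.54, 5.91 and 7.07 and ranks of 8.9, 6.8 and 20.8, near the weak end of each list. The Sele region was also the only region assigned to that gene.

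The other promoters shown were called in 1 list outside the metatarsals as well. At Adgrf5, an adhesion G protein-coupled receptor, the region ranked 30.7, 38.9 and 23.9 in metatarsal digits I, III and V and 40.6 in metacarpal digit III. Agtr1b, which encodes an angiotensin II receptor, ranked 25.6 and 11.6 in metatarsal digits I and III and 47.5 in metacarpal digit III. The uncharacterised gene 1700016C15Rik ranked 36.4 in metatarsal digit III, 3.4 in digit V and 25.7 in metacarpal digit III. At Adgrf5 and Agtr1b the metacarpal peak stood higher in its own, longer list than any metatarsal peak did in its list. At Adgrf5 the fold enrichment of the metacarpal peak, 8.01, lay between the 7.04 and 8.70 of metatarsal digits I and III. At Agtr1b it was 9.07, above the 6.61 and 6.18 of metatarsal digits I and III. Gpr174, Pcdhgb7, Cep350, Tdrd7, Agbl1, Plcl2, Ccl2, Mc5r, Elf5 and Hsd17b6 were the other genes with a member at the start. Of the 15 regions, 7 were also called in metacarpal digit III (46.7%, against 44.3% of all members). In no other list were 5 (33.3%, against 30.9% of all members). The median ranks of the 15 ran from 2.1 to 32.5 with a median of 9.0.

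Most metatarsal regions were called in only part of the metatarsals. All 3 metatarsal lists called 250 of the 1149 (21.8%, Wilson 95% interval 19.5 to 24.2, counting error only), and 899 (78.2%) were called in 2. Digits I and III without V accounted for 524 regions (45.6%), digits I and V without III for 211 (18.4%), and digits III and V without I for 164 (14.3%). Digit I called 985 of the members (85.7%), digit III 938 (81.6%) and digit V 625 (54.4%). The order followed the length of the lists, which held 46582, 44292 and 36700 peaks and called 67.5%, 63.8% and 52.7% of all regions. At equal list length the order was the other way round, since of the 917 regions that then met the rule digit V called 767, digit III 663 and digit I 628. When a metatarsal list was left out and both remaining ones had to call a region, the rule kept 419 regions without digit I, 467 without digit III and 776 without digit V.

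**Figure D1:**
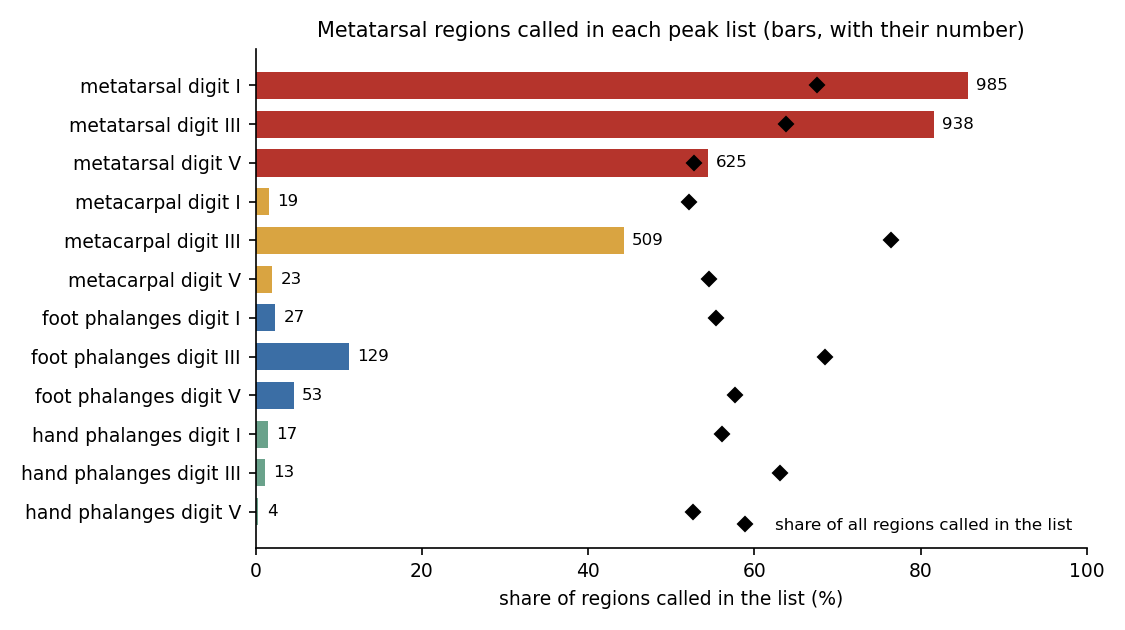
Share of the 1149 metatarsal regions called in each of the 12 lists (bars, in percent, with the number of regions) and share of all 65543 regions called in the same list (diamonds). The metatarsal digit V bar is the shortest of the metatarsal bars at 54.4%, and metacarpal digit III stands above the other 8 lists outside the metatarsals at 44.3%.

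At the deposited list lengths, a single list outside the metatarsals held most of the remaining calls. No other list called 355 metatarsal regions (30.9%, Wilson interval 28.3 to 33.6), and exactly 1 called the other 794. Metacarpal digit III was that list for 509 regions, 64.1% of the 794, and at equal list length it held 161 of 507 outside calls (31.8%). Foot phalanges followed with 129 regions in digit III, 53 in digit V and 27 in digit I. Metacarpal digits V and I called 23 and 19, and hand phalanges 17 in digit I, 13 in digit III and 4 in digit V. Metacarpal digit III was the longest list, with 53276 peaks, and alone held 4476 of the 11127 regions called in a single list (40.2%). Without that list, the rule kept 2003 regions instead of 1149. Under the mirrored rule for metacarpals, 453 of 1023 regions with 1 other call (44.3%) had it in metatarsal digit III and 170 (16.6%) in metatarsal digit I.

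Members in all 3 metatarsal lists and in none of the other 9 numbered 63, or 0.0961% of all regions. The same rules kept 1824 regions for metacarpals (2.78%, of which 78 were in all 3 and no other, 0.119%), 2145 for foot phalanges (3.27%, with 323, 0.493%) and 705 for hand phalanges (1.08%, with 7, 0.0107%). The share in all 3 lists of the element was 15.4% for metacarpals, 33.2% for foot phalanges and 6.81% for hand phalanges, with metatarsals at 21.8% between them. In the reverse direction, 230 regions (0.351%) were called in at most 1 metatarsal list and in at least 8 of the other 9. The reverse counts were 1111 (1.70%) for metacarpals, 1254 (1.91%) for foot phalanges and 423 (0.645%) for hand phalanges. With 1 list left out the metatarsal count ran from 46 (without metatarsal digit V) to 487 (without metacarpal digit I, and likewise without metacarpal digit V), so the elements are not ranked by it.

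The threshold ran through a continuous range. Just inside it lay 607 regions called in 2 metatarsal lists and 1 other, with a median rank of 14.0 in the metatarsal lists, and 187 called in 3 and 1, at 19.7. Just outside lay 788 regions called in 2 and 2, at 14.9, and 323 called in 3 and 2, at 19.7. Regions in 1 metatarsal list and no other numbered 1931, with a median rank of 7.9. Across the limit on other lists the median ranks were close, while across the limit on metatarsal lists they were higher inside, at 12.7 for the 292 regions in 2 metatarsal lists and no other.

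**Figure D2:**
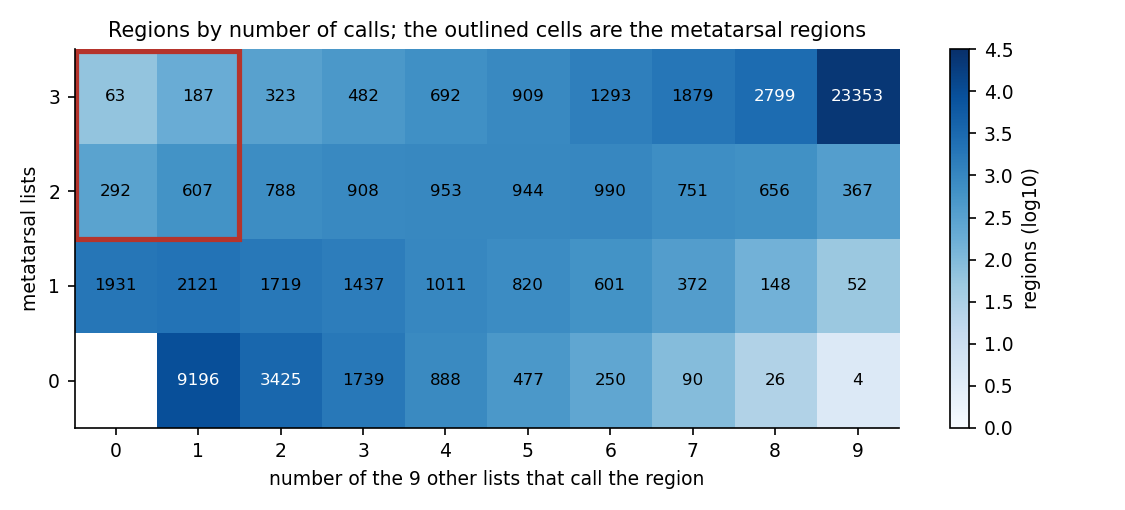
Number of regions by how many of the 3 metatarsal lists (vertical axis) and how many of the 9 other lists (horizontal axis) called them, coloured by log10 of the number. The outlined cells hold the metatarsal regions (63, 187, 292 and 607), next to 788 and 323 regions just outside, while 23353 regions were called in all 12 lists.

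Metatarsal regions sat among the weaker peaks of the lists that chose them. Their median rank was 15 in metatarsal digit I (quartiles 7.9 and 25), 13.7 in digit III (6.8 and 23.5) and 12.2 in digit V (6.5 and 21.8), with median fold enrichments of 5.88, 6.31 and 6.50. Only 3, 2 and 1 members ranked above 50 in these lists. Regions called in all 12 lists had median ranks of 74.6, 73.1 and 67.6. Other regions called in 2 to 4 lists, the number of lists a metatarsal region can have, had 12.5, 12.7 and 9.5. The 63 regions in all 3 metatarsal lists and no other had a median rank of 18.5, from 1.7 to 41.5.

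**Figure D3:**
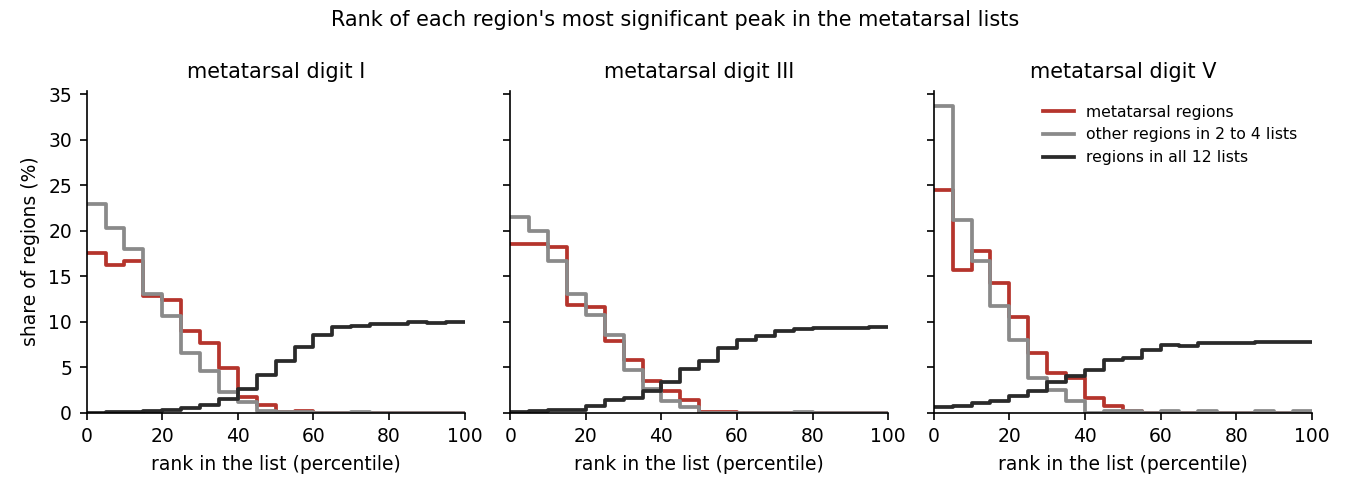
Distribution of the rank of each region's most significant peak (percentile within the list, in steps of 5, horizontal axis) as a share of regions (vertical axis, percent) in the 3 metatarsal lists. Metatarsal regions, with medians of 15, 13.7 and 12.2, lie close to the other regions in 2 to 4 lists and far below the regions in all 12 lists.

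The outside call often had the higher rank where it was in metacarpal digit III, the longest list. Of the 509 regions called there, 330 ranked higher in metacarpal digit III than in the metatarsals and 179 lower, with medians of 22.9 and 16.1. Their median fold enrichment there was 6.25, within the 5.88 to 6.50 of members in the metatarsal lists. In foot phalanges digit I the order was the other way, with 3 regions higher there and 24 lower and medians of 5.5 and 16.6. Foot phalanges digit III had medians of 12.3 and 13.9, with 56 regions higher there and 73 lower. Ranks from lists of different lengths show no change in openness, and these values only place each peak within its own list.

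The lists that defined the rule did not differ detectably in overall properties. Metatarsal lists held 42525 ± 5173 peaks (SD, n = 3 lists) and the others 41575 ± 5662 (n = 9, two-sided exact permutation p = 0.868). The lowest −log10 p-value kept was 36.7 ± 4.63 against 35.0 ± 9.03 (exact permutation p = 0.782). The median peak width was 2015 ± 108 bp against 1959 ± 179 bp (exact permutation p = 0.618). The smallest p that 3 lists against 9 can give is 0.00455. Single lists spread widely around these means, from a lowest kept −log10 p-value of 23.0 in metacarpal digit V to 49.6 in metacarpal digit I.

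Cutting all lists to the same length exchanged most of the members. With the 36194 most significant peaks of each list, 917 regions met the rule, a similar number, but only 331 of the 1149 members (28.8%) overlapped one of them. The other 818 were then called in fewer than 2 metatarsal lists. Members called in metatarsal digits I, III and V went from 985, 938 and 625 to 308, 348 and 577, and those called in metacarpal digit III from 509 to 139. Of the 63 regions in all 3 metatarsal lists and no other, 35 met the rule at equal length. Among the 917 regions the metacarpal digit III list again had the most outside calls but not the majority, at 161 of 507, followed by metacarpal digit V at 81 and metacarpal digit I at 66. A metatarsal region was thus specific to metatarsals only in the sense of the rule and at the deposited list lengths.

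Peak summits of the different digits lay close together. The metatarsal summits of a member lay within 200 bp of each other in 1017 of 1149 regions (88.5%), with a median spread of 46 bp and an upper quartile of 99 bp. In 718 of the 794 regions with an outside call (90.4%), the summit there also lay within 200 bp of the metatarsal summits. Lists that did not call a member had another peak within 1 kb for 67 members (5.83%), within 5 kb for 355 (30.9%) and within 50 kb for 1014 (88.3%). The median distance to such a peak was 10.0 kb. No such shares of summits or neighbours are given for other regions, so these values do not set the members apart.

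Metatarsal regions lay far from gene starts. The median distance to the nearest start was 59.5 kb (quartiles 19.7 and 155 kb), against 44.2 kb for the 12117 other regions in 2 to 4 lists, 26.6 kb for all regions and 1.93 kb for regions in all 12 lists. More than 100 kb separated 408 members (35.5%) from a start, compared with 29.3% of other regions in 2 to 4 lists. A gene start lay within 1 kb for 1.31% of members (Wilson 95% interval 0.793 to 2.14) and for 2.42% (2.16 to 2.71) of those other regions. Inside a gene lay 501 members (43.6%, 40.8 to 46.5), against 48.8% (47.9 to 49.7) of the other regions in 2 to 4 lists and 66.6% of regions in all 12. Exons and introns are not told apart, because the gene table gives only the ends of genes. Metacarpal regions by the same rule had a median distance of 46.3 kb, foot phalanx regions 48.8 kb and hand phalanx regions 67.0 kb, so the metatarsal value lay within the range of the other elements. The share at a start depended on the choice of peaks, with 2.18% at equal list length and 4.60% in the more significant 50% of each list, and the median distance was 39.0 kb when stretches were compared base by base.

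**Figure D4:**
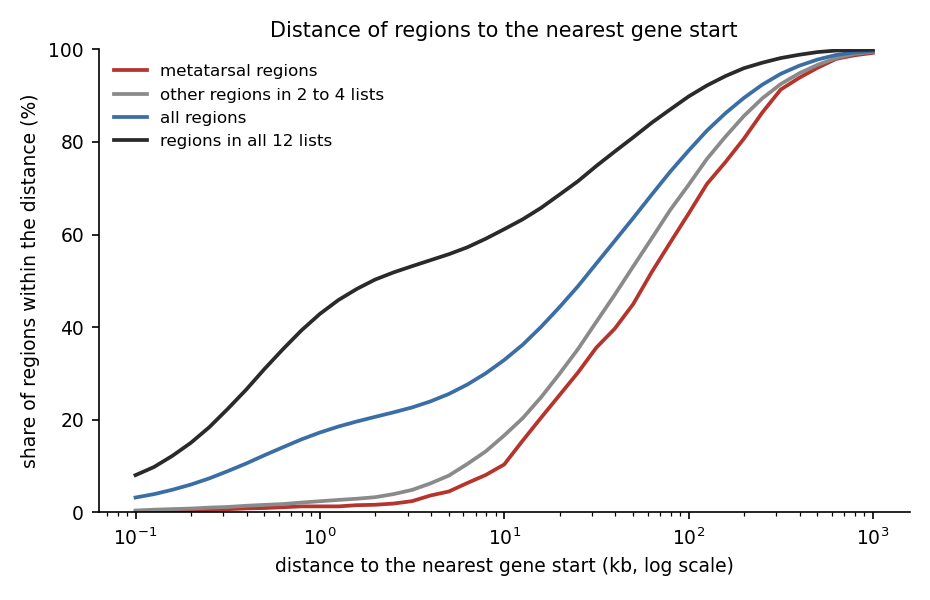
Cumulative share of regions (vertical axis, percent) whose centre lies within a given distance (horizontal axis, kb, log scale) of the nearest start of a protein-coding gene, or of either end where the start is not known. The curve of metatarsal regions runs lowest, with a median of 59.5 kb, below the other regions in 2 to 4 lists (44.2 kb), all regions (26.6 kb) and the regions in all 12 lists (1.93 kb).

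In width the metatarsal regions resembled other regions of similar frequency, with a median of 1634 bp against 1626 bp, and were narrower than regions in all 12 lists (3668 bp). A region open in all 12 lists lay within 50 kb of 61.4% of members, 65.5% of other regions in 2 to 4 lists and 78.4% of all regions. By chromosome, members made up between 1.03% (chromosome 15) and 2.47% (chromosome 1, 118 of 4783) of the autosomal regions. They made up 0.731% (11 of 1504) of those on the X chromosome, and none of the 141 regions on the Y chromosome was a member. Of all members, 0.957% lay on the X, against 2.10% of other regions in 2 to 4 lists. By the same rule the share was 0.559% for foot phalanx regions, 2.14% for metacarpal regions and 4.96% for hand phalanx regions. The metatarsal value thus lay within the range of the other elements.

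The genes next to metatarsal regions had a start open in all lists about as often as genes with a region at large. Of the 1149 members, 1140 could be assigned to the nearest of 1001 genes within 1 Mb, of which 882 had 1 member, 105 had 2 and 14 had 3 or more. Among the 736 of these genes with a known start, a peak covered the start in all 12 lists for 576 (78.3%), and over all genes with a region for 9890 of 13030 (75.9%). Assignment by distance does not show which gene a region acts on. Of the 501 members inside a gene, 406 were assigned to a gene they lay in.

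The best ranked regions called in all 3 metatarsal lists and no other were mostly intergenic, as were the members at large. Of the first 15, 4 lay inside a gene (26.7%), against 34.9% of all 63 such regions and 43.6% of all members. The median ranks of these 15, by which they were picked, ran from 25 to 41.5. The first, 241 kb from S1pr1, which encodes a receptor for the lipid sphingosine-1-phosphate, lay at chr3:115468480-115470094. Its fold enrichments were 8.36 in metatarsal digit I, 6.18 in digit III and 9.29 in digit V, and its ranks 42.2, 11.6 and 41.5, so digit III was the weak one. The nearest peak of any other list was 59.0 kb away.

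The region 182 kb upstream of Tshz3, a teashirt-family zinc finger transcription factor, was more even (chr7:36515139-36516437). It had fold enrichments of 7.92, 9.50 and 8.22 and ranks of 38.8, 44.0 and 33.4 in digits I, III and V. A further Tshz3 member, 380 kb upstream, was called in digits I and III and in metacarpal digit III and was lost at equal length. The region 6.31 kb upstream of Myo5a, an unconventional myosin that carries vesicles, ranked 45.0, 25 and 36.7 (chr9:75063971-75065828). Inside Hdac9, a class IIa histone deacetylase, a region 122 kb from the start ranked 38.8, 10.5 and 36.1 (chr12:34405836-34408758).

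In several of these regions digit III had the lowest rank. Uchl1, a ubiquitin hydrolase, had a region 21.5 kb upstream with ranks of 32.3, 11.6 and 36.1. Tnfrsf19, a receptor of the tumour necrosis factor receptor family, had one inside the gene with ranks of 31.3, 6.8 and 39.8. Utp18, a ribosomal RNA processing factor, had one 230 kb away with ranks of 30.2, 4.3 and 27.7, and Slc35f5 one 27.2 kb upstream with ranks of 27.9, 4.3 and 29.5. The reverse held at Nuf2, a kinetochore protein, with ranks of 15, 33.6 and 31.2, and inside Rab11fip1, an adaptor of recycling endosomes, with 16.6, 37.5 and 25.8. Adgrl2, Galc, Ptprf and Tox3 completed the 15. The Adgrl2 region, 221 kb from this latrophilin gene, was the widest at 3853 bp and had a peak of another list 1.58 kb away.

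Among the remaining members, the highest ranks of the whole set were found. A region 118 kb upstream of Slc24a3, a sodium, potassium and calcium exchanger, had fold enrichments of 11.3, 11.2 and 11.3 in metatarsal digits I, III and V and ranks of 56.5, 51.8 and 51.3 (chr2:145048881-145050921). In metacarpal digit III the same region had a fold enrichment of 6.25 and a rank of 22.9. It was even among the metatarsals and lower in its place within the metacarpal list. Near Bnc2, which encodes the zinc finger protein basonuclin 2, a region 522 kb from the start had a fold enrichment of 13.5 in metatarsal digit III, the highest of any member in that list (chr4:84087682-84089168). Its rank was 59.3 there, 32.3 in digit I and 55.8 in metacarpal digit III.

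Trpv1, the heat- and capsaicin-gated ion channel, had a region inside the gene, 2.42 kb from the start, with ranks of 47.1, 41.1 and 23.9 and a rank of 1.4 in foot phalanges digit III (chr11:73235655-73237473). That region was the only one assigned to Trpv1. Fat3, an atypical cadherin, had a region 787 kb upstream with ranks of 40.0, 38.4 and 47.3, and 24.7 in foot phalanges digit V. Piezo2, the mechanically gated ion channel, had a region with ranks of 11.6, 44.4 and 40.9, and 31.7 in metacarpal digit III. Acox3, Dera, Ptprj, Ndfip2 and Rps27rt were the other genes among these 10, and the Rps27rt region lay inside Osbpl10. Of the 10, 7 were called in metacarpal digit III, as were 64.1% of all members with 1 other call.

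Genes of skeletal and limb development held a small part of the metatarsal regions. Lists of 327 genes, from limb identity to cell type markers, had 59 members among 2894 regions (2.04%, where 1.75% of all regions were members), assigned to 47 genes. Of these, 10 were in all 3 metatarsal lists (16.9%), 21 in no other list (35.6%), and 2, at Col3a1 and Sall1, met both. At equal length 14 of the 59 (23.7%) met the rule. The median ranks of the 59 ran from 2.1 to 34.9 with a median of 15, like those of all members.

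Among the genes of limb identity, Pitx1, Tbx4 and Tbx5 had no member, while Isl1 and Tbx2 did. Pitx1, the hindlimb selector, had 12 assigned regions, of which metatarsal lists called 5 to 9 and the others 2 to 10, and no member. Tbx4 had 11 regions, of which 7 to 8 were called in metatarsal lists and 4 to 10 in the others, and no member, and Tbx5 had 13 and none. The ranges of metatarsal and other lists overlapped at Pitx1 and Tbx4. Isl1, a transcription factor that acts early in hindlimb bud formation, had 2 members, 473 kb and 28.6 kb from the start. The first ranked 32.3 in digit I and 6.5 in digit V, was also called in foot phalanges digit III at rank 1.4, and met the rule at equal length. The second ranked 6.9 and 5.0 and did not. Tbx2, a T-box repressor of the limb margins, had 1 member, inside Bcas3, which was lost at equal length. Together the 15 genes of the limb identity list had 3 members of 114 regions (2.63%), where 1.75% of all regions were members. The posterior HoxA and HoxD genes had none of 8, and their starts were covered by peaks in all metatarsal lists and in the others for all 11 genes with a known start. Hoxa13 had 3 regions, Hoxc10 and Hoxc11 had 2 each, and none was assigned to Hoxd13.

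Of the 394 regions at genes that pattern the digits, 9 were members (2.28%). Pax9, a paired-box transcription factor expressed in distal limb mesenchyme, had 3, called in digits I and III and not in V. They ranked 27.9 and 13.7, 6.9 and 4.3, and 14.2 and 22.7 in digits I and III, and each was also called in a metacarpal list. None of the 3 met the rule at equal length. Gli2, a transcriptional effector of Hedgehog signalling, had 1 in no other list, with ranks of 23.1 in digit I and 14.8 in digit V, and it met the rule at equal length. Sall1, a zinc finger protein needed for normal limbs, had 1 member 611 kb upstream with ranks of 15, 6.8 and 3.4, which was lost at equal length. Alx4, Irx3 and Sall3 had 1 each, lost likewise, and the Alx4 region lay inside Ext2.

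Both lists of chondrocyte genes had shares below the 1.75% of all regions, but on 4 members and 1 member, so these counts are a description only. Genes of resting and proliferating chondrocytes had 4 members of 277 regions (1.44%), and those of prehypertrophic and hypertrophic chondrocytes 1 of 122 (0.82%). Sox9, the master regulator of cartilage formation, had 43 regions and 1 member, 361 kb away, with ranks of 0.5 in digit I, 4.3 in digit III and 10.9 in foot phalanges digit V. Its partner Sox5 had 1 of 44, with ranks of 1.5 and 19.3. Trps1, a GATA-type repressor of chondrocyte maturation, had 1 of 43, which ranked 14.2, 18.5 and 9.5 in digits I, III and V and met the rule at equal length. Sfrp5, a secreted WNT antagonist, had 1 of 3, which lay inside Zfyve27. Runx2, the transcription factor of chondrocyte enlargement and bone formation, had 1 inside the gene, with ranks of 20.3 and 9.3 in digits I and III and 9.3 in metacarpal digit III. Col2a1, the gene of type II collagen, had 5 regions, and Col10a1, a collagen of enlarged chondrocytes, had 3, with no member at either. The Sox9, Sox5, Sfrp5 and Runx2 regions did not meet the rule at equal length.

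At joint genes 5 of 236 regions (2.12%) were members. Gdf6, a growth factor of joint formation, had 2. One, 38.0 kb from the gene, was in no other list and ranked 8.9 in digit I and 33.4 in digit V. The other ranked 3.7 and 0.5 in digits I and III and 4.3 in metacarpal digit III. Creb5, a transcription factor of articular cartilage, had 1, with ranks of 41.6 in digit III, 8.0 in digit V and 25 in metacarpal digit III. Vit, which encodes vitrin, had the best ranked member of all the listed genes, with 39.3 in digit I, 30.6 in digit III and 15.8 in metacarpal digit III. The Creb5 and Vit regions met the rule at equal length and both Gdf6 regions did not. Osr2 had 1 member, also lost, and Gdf5 had 2 regions with none. At perichondrial and osteoblast genes the single member of 125 regions (0.80%) was at Twist2, a basic helix-loop-helix repressor of osteoblast differentiation, and it was lost at equal length.

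Signalling genes lay on both sides of the background share of 1.75%. Genes of the BMP and TGF-beta pathways had 9 members of 391 regions (2.3%). Their ligands Bmp2 and Tgfb2 had 2 members each, the receptors Acvr2a and Tgfbr2 had 1 each, the latent TGF-beta binding protein Ltbp1 had 1, and the target Id2 had 2. The stronger Bmp2 member, 186 kb away, ranked 27.9, 21.1 and 8.0 in digits I, III and V and 16.2 in foot phalanges digit III, and it was the only one of the 9 that met the rule at equal length. The 2 Tgfb2 members spanned 12.9 kb, at 292 kb and 281 kb from the start.

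WNT genes had 8 members of 435 regions (1.84%), 1 each at the ligand Wnt2, the receptors Fzd1 and Ror1, the antagonist Dkk2, the agonist Rspo3, its receptor Lgr5, the intracellular mediator Ctnnb1 and the transcription factor Tcf7. The Fzd1 region, 234 kb from the start, lay inside Cdk14, and the Ctnnb1 region, 39.2 kb from the start, lay inside Ulk4. The Ror1 region ranked 34.7 and 30.6 in digits I and III and 35.7 in metacarpal digit III. Inside Tcf7, a region of 4765 bp ranked 35.6, 18.5 and 22.9 in the metatarsals and 47.2 in metacarpal digit III. The Ror1 and Tcf7 regions met the rule at equal length and the other 6 WNT members did not. FGF genes had 1 member of 146 regions (0.685%), at the receptor Fgfr4, which was lost at equal length. Growth genes had 7 of 250 (2.80%), of which Gpc6, a glypican whose loss shortens the limbs in people, had 4. The 4 Gpc6 members all lay inside the gene, 3 of them in no other list, and none met the rule at equal length. Fbn1, Hmga2 and Igfbp3 had 1 each, which did not meet it either.

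Markers of tendon, endothelium and blood, cell types that dissected cartilage could carry, had 3 or 4 members each. Their shares lay above the 1.75% of all regions, but on so few members that the lists are not ranked by them. Tendon genes had 4 of 122 (3.28%), at Eya1 (2, at 179 kb and 53.7 kb from the gene end), Col3a1 and Mkx (49.8 kb). The Col3a1 region, 280 kb upstream of this fibrillar collagen gene, was in no other list, ranked 21.1, 21.1 and 20.8 in digits I, III and V and met the rule at equal length. Endothelial genes had 3 of 85 (3.53%), at distances of 3.7 kb from Eng, 112 kb from Emcn and 276 kb from Cdh5. Blood and macrophage genes had 3 of 73 (4.11%), with 2 at Ptprc (569 kb and 152 kb away) and 1 at Runx1 (172 kb away). Skeletal muscle genes had 1 of 44 (2.27%), at Pax3, while the 44 epidermal and 46 nerve and Schwann cell regions held none. At equal length the Eng, Emcn and Pax3 regions and 1 of the Eya1 regions met the rule, and those at Mkx, Cdh5, Ptprc and Runx1 did not.

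For the marker lists given here, the number of starts covered by peaks had overlapping ranges in metatarsal and other lists, and no difference was tested. Of 17 known starts of resting and proliferating chondrocyte genes, 14 to 15 were covered in each metatarsal list and 14 to 15 elsewhere. Acan, Col9a1, Col11a2 and Matn3 were among those covered in every list. Sox5 and Ucma were at 0, and Matn1 was covered in 1 metatarsal list and 6 others. The skeletal muscle range was 3 to 5 of 11 in metatarsal lists and 4 to 6 elsewhere. The starts of Actn2 and Des were covered in every list, and those of Acta1, Ckm, Myh3, Myh8 and Ttn were at 0. Pax7 was covered in 1 metatarsal list and 7 others, Ryr1 in 2 and 9, Myog in 0 and 2, and Myf5 in 3 and 7. For endothelium the range was 4 to 5 of 8 on both sides. Erg, Flt1, Kdr and Tek were covered in every list, and Emcn, Tie1 and Robo4 were at 0. Eng was covered in 1 metatarsal list and 2 others. The blood range was 5 to 6 of 9 against 3 to 6. Runx1 and Tal1 were covered in every list, and Gata1, Itgam and Ptprc were at 0. Hbb-bs, Cd68 and Hba-a1 were covered in all 3 metatarsal lists and in 6, 7 and 8 of the 9 others. Klf1 was covered in 2 metatarsal lists and 6 others. The epidermal range was 3 of 6 against 2 to 3, with Epcam and Grhl3 in every list. Tfap2a was covered in 3 metatarsal lists and 8 others, and Krt5, Krt10 and Krt14 were at 0. All 6 nerve starts were covered in every list. Whether cells of these types add to the metatarsal calls was not tested.

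Some members lay in runs. Within 100 kb of another member lay 167 of the 1149 (14.5%), in 78 runs, of which 68 held 2 members, 9 held 3 and 1 held 4. This share was 13.8% at equal list length, 4.09% in the more significant 50% of each list and 26.8% for stretches compared base by base. No such share is given for other regions, so it does not set the members apart. The run of 4 spanned 176 kb of chromosome 13 (chr13:28698863-28874745), downstream of Sox4, a SoxC transcription factor of mesenchymal progenitors, and held 14 regions in all. Its members ranked 11.6, 40.0, 25.6 and 7.9 in metatarsal digit I and 14.7, 16.7, 21.1 and 19.3 in digit III, in order along the chromosome, and digit V called none of them. Metacarpal digit III called 3 of the 4, and only the third, at chr13:28786646-28787928, met the rule at equal length. Another Sox4 member lay 419 kb upstream, inside Cdkal1, so that Sox4 had the most members of any gene, all 5 in digits I and III. In all, 37 regions were assigned to Sox4. The genes with 4 members, Dlg2, Flrt2, Gpc6 and Plcb4, had 27, 23, 47 and 22 assigned regions.

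Shorter runs of 3 lay at Adamts3, Plcb4 and Pax9. At Adamts3, which encodes a protease that trims procollagen, 3 members spanned 70.8 kb (chr5:89872008-89942834), all called in digit I, 1 in digit III and 2 in digit V, and none met the rule at equal length. At Plcb4, a phospholipase C of G protein signalling, 3 of the 4 members spanned 70.9 kb (chr2:135741186-135812108) and lay inside the gene. One of them, 21.9 kb upstream of the nearest start, was called in all 3 metatarsal lists and in no other, with ranks of 18.2, 9.3 and 37.3, and was lost at equal length. The Pax9 run spanned 105 kb and held 8 regions (chr12:56677264-56781903), its members on both sides of the gene and 2 of them inside Slc25a21. Dlg2, a synaptic scaffold gene, and Flrt2, a gene for a membrane adhesion protein, had 4 members each without such a short run. All 4 at Dlg2 were called in metacarpal digit III, where one ranked 61.5.

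**Figure D5:**
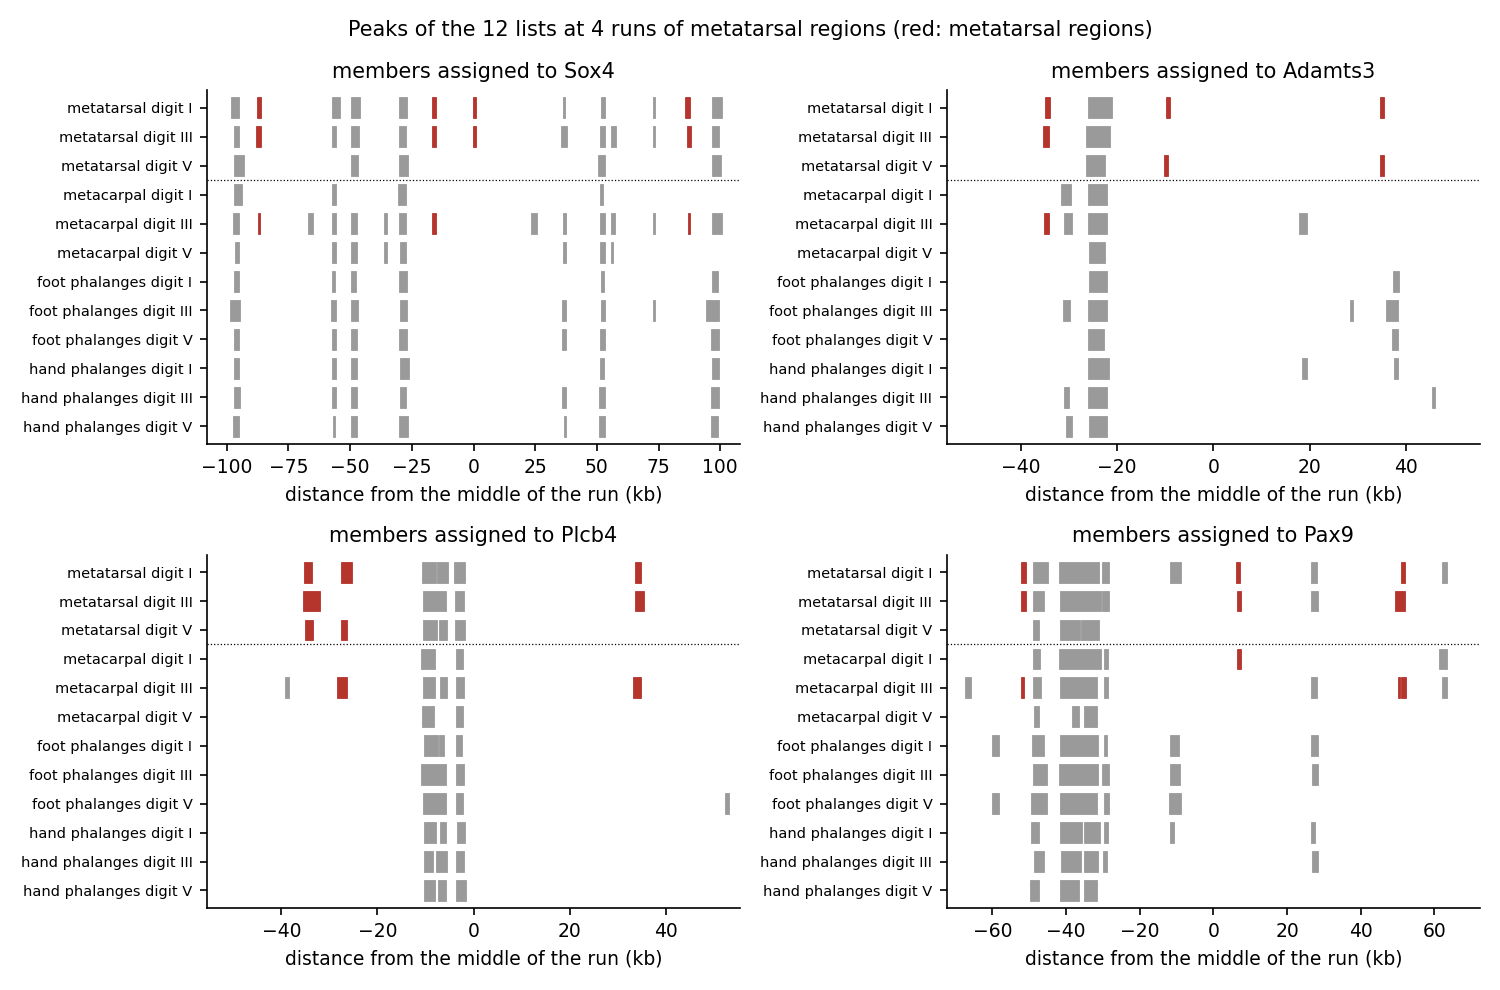
Peaks of the 12 lists (rows, metatarsals above the dotted line) at the runs near Sox4, Adamts3, Plcb4 and Pax9, by distance in kb from the middle of the run, with members in red and other regions in grey. Members stand beside regions called in most lists, digit V has no red peak at Sox4 or Pax9, and metacarpal digit III shares red peaks at all 4 runs.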

How the data were processed

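Open chromatin was measured by ATAC-seq in 36 libraries, which form 12 groups of 3 by limb, element and digit. Replicates are separate pools of embryos per the labels, but the 12 deposited peak lists were each called on the pooled libraries of a group, as the peak names in the files show, and selected by irreproducible discovery rate per the file names. Bowtie2 2.3.4.1, Picard 2.9.0, MACS3 and mm10 appear in the submitters' processing notes with no role or setting. Trimming, filters and the shift of cut sites are not given in the sources used here, and a different shift would displace peak edges slightly, which could change an overlap of a few bases. The authors deposited for each peak its summit offset in bp, its −log10 p-value, its fold enrichment as a ratio, and a score. The deposited score was not used. The deposited fold and −log10 p-value served only as values and ranks within a list. The lists ended at different lowest −log10 p-values, so a region missing from a list may lie below its threshold. Read depth per library is unknown, and no interval here covers it.

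Peaks that shared at least 1 bp were merged, and a list called a region where one of its peaks overlapped it by at least 1 bp. The members and gene lists were chosen with earlier results of these data known. Positions of genes were read from RefSeq's table for GRCm38.p6. Of its 21887 protein-coding genes, 17492 (79.9%) had a strand and start in the promoter table, and both ends were used for the rest. Regions were assigned to the nearest start up to 1 Mb from their centre. As a check of coordinates, a start lay within 1 kb of 42.9% of the regions in all 12 lists, and of 3.81% after a shift of 100 kb and 2.95% after 1000 kb. The planned search for motifs in windows round summits was replaced by promoters. The 3 list properties were compared by two-sided exact permutation tests, whose p-values measure only the spread between lists. Wilson 95% intervals take in no more than counting error.

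Named genes were those of the lists with a member, the 12 with most members (ties in alphabetical order), the 15 best ranked members in all 3 metatarsal lists and no other, the 10 best ranked others, 11 landmark genes, the 3 densest runs and the 12 best ranked members within 1 kb of a start. 1 gene that the rule names is not reported here. The Sele promoter, the Pax9 run in the map, and Mc5r, Elf5 and Hsd17b6 were added after their values were seen, as was the cover of marker starts by peaks. Alternatives were equal list length, the more significant 50% of the peaks of a list, calls only where peaks cover 50% of a region, 500-bp windows round summits, a 1 kb margin of absence, autosomes alone, the stricter rule, stretches of at least 500 bp compared base by base, a 5 kb limit at starts and each list left out. The region rule was tested on simulated lists with planted regions. Python 3.11.15, numpy 2.4.6, pandas 2.3.3, scipy 1.17.1 and matplotlib 3.10.9 were used.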

Additional observations from a re-analysis of the deposited data

Results flagged for a closer look

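Among the 9 lists outside the metatarsals, metacarpal digit III called 509 metatarsal regions and stood apart from the other 8, which called 4 to 129. The gap to the next list, foot phalanges digit III, was 0.752 of the whole range of the 9 lists. The rule selected on these calls, so the gap is a description and no chance rate applies to it.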

How the results depend on the processing

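The number of metatarsal regions stayed within 1.5 times of 1149 with peaks that cover 50% of a region, equal list length, 500-bp windows round summits, a 1 kb margin of absence and autosomes alone. The more significant 50% of each list gave 391 metatarsal regions, 63 missing from metatarsals, 723 for metacarpals, 735 for foot phalanges and 200 for hand phalanges, with 4.60% at a start, 47.6% inside a gene, a median distance of 49.8 kb and a median rank of 52.9. The stricter rule gave 63, 4, 78, 323 and 7 regions in the same order, with 3.17%, 34.9%, 73.7 kb and 18.5. Stretches numbered 2181, with 2.25% at a start, 50.2% inside a gene, 39.0 kb and a rank of 21.5. Equal length gave 2.18% at a start and a rank of 23.9, cover of 50% gave 53.4 kb and 17.3, and 500-bp windows gave 2.56%, 46.8% and 15.6. A 5 kb limit put 4.53% at a start. Distance to the nearest end of every gene, an alternative chosen after seeing the data, was 49.3 kb. The cause of these shifts was not tested.

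With each list left out in turn, the number of metatarsal regions ran from 419 (without metatarsal digit I) to 2003 (without metacarpal digit III), those missing from metatarsals from 46 to 487, metacarpal regions from 306 to 2521, foot phalanx regions from 1112 to 2762 and hand phalanx regions from 87 to 921. The share at a start ran from 1.07% to 2.25%, the share inside a gene from 39.2% to 45.3%, the distance from 52.8 to 63.1 kb and the median rank from 14.2 to 16.6. The difference in list length, metatarsal minus other, ran from -1079 to 3862 peaks, that of the lowest −log10 p-value from -0.78 to 3.82 and that of the median width from -6.39 to 90.61 bp. The lowest of each, without metatarsal digit I, had the opposite sign, and all exact permutation p-values were between 0.382 and 0.982. Against the 3 metacarpal lists alone the difference in length was -48.67 (exact permutation p = 1.0). With labels permuted within digit, an alternative chosen after seeing the data, the differences were the same and the exact permutation p-values 0.844, 0.719 and 0.609 (smallest possible 0.0156). No paired analysis was possible by replicate, because each list pools its replicates and the files carry no replicate numbers. The unknown depth and the differing end of each list limit what a missing call can mean.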

Other observations

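Base by base, 2181 stretches of at least 500 bp were covered by peaks of at least 2 metatarsal lists and at most 1 other list. Of these, 1104 lay inside metatarsal regions and 1077 inside wider regions that other lists also called, so the rule on whole regions leaves out about as many such stretches as it keeps. A stretch was present in 1101 of the 1149 metatarsal regions and absent from 48.

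Of 1005 microRNA hairpins in the RefSeq table, 3 lay inside metatarsal regions: Mir344f, Mir6416 and Mir6963. The Mir344f region (chr7:62045990-62046651) was in no other list and ranked 1.5 in metatarsal digit I and 17.3 in digit V. The Mir6416 region (chr7:64249299-64250690), inside Trpm1, ranked 12.5 and 1.7 in digits I and III and 35.3 in metacarpal digit III. The Mir6963 region (chr15:103350031-103355040), inside the integrin gene Itga5, ranked 18.2 and 3.0 in digits I and III and was in no other list. None of the 3 regions met the rule at equal list length.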
